A study of Homo sapiens with 13 samples.

Results

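The genes described here are the 4 JAK kinases (JAK1, JAK2, JAK3 and TYK2) and 6 genes that STAT factors switch on as feedback inhibitors or survival kinases (SOCS1, SOCS2, SOCS3, CISH, PIM1 and PIM2). All 10 were found by gene name among the 45744 genes of a table of raw RNA sequencing counts, and 9 of them had enough counts to be tested. The cells were HuT78, an established line from a patient with Sézary syndrome, a cutaneous T cell lymphoma that spreads to the blood. They were exposed for 72 h to 10 nM chaetocin (4 libraries, replicates 1 to 4), 10 nM F5446 (3 libraries, replicates 2 to 4), 1 µM romidepsin (4 libraries, replicates 1 to 4) or DMSO, the vehicle (2 libraries, replicates 1 and 4). Chaetocin is a fungal compound that inhibits the histone H3 lysine 9 methyltransferase SUV39H1, F5446 is a code-named SUV39H1 inhibitor, and romidepsin inhibits histone deacetylases. The treatment tags of the F5446 libraries read F5446, F5447 and F5448, while their titles all give F5446, and the titles were used. All groups are the same line, so they carry no separate patients, and the labels do not say whether replicates were separate cultures. The p-values therefore measure only the spread between these samples.

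Cytokine receptors have no kinase of their own and signal through pairs of JAK kinases, which phosphorylate the receptor and then the STAT transcription factors. Receptors that contain the common gamma chain, such as those for interleukins 2, 7 and 15, use JAK1 and JAK3, and T cells depend on them. STATs in turn induce CISH and the SOCS genes, whose proteins shut the receptor off, and the PIM genes, whose serine/threonine kinases favour survival and growth. Mutations that activate this pathway recur in cutaneous T cell lymphoma.

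STAT5 and related factors bind the palindrome TTCNNNGAA. The promoter of CISH is shown because CISH is the member whose promoter holds that motif. That of PIM2 is shown because both genes were highest in the 3 libraries labelled replicate 1. Both promoters run from 250 bases before to 50 bases after the transcription start and read 5′ to 3′ along the gene. They are taken from RefSeq on GRCh38.p14, and capitals mark TTCNNNGAA. The CISH promoter lies at chr3:50611725-50612024 on the minus strand, and the PIM2 promoter at chrX:48918975-48919274 on the minus strand.
CISH: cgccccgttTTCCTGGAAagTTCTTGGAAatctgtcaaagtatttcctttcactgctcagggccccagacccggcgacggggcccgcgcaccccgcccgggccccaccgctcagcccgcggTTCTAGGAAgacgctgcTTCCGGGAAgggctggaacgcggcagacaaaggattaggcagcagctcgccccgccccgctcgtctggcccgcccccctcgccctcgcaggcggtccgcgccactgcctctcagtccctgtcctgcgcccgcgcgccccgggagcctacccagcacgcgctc
PIM2: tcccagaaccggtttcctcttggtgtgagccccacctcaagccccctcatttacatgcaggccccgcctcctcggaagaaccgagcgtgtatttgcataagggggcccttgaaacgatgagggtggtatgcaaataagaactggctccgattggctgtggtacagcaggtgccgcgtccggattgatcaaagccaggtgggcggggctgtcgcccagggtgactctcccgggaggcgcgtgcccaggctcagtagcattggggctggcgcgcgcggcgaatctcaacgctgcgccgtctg

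The CISH promoter held 4 copies, whose first bases lay at -241, -230, -129 and -112 from the start. The motif reads the same on both strands, and none of the 4 copies overlapped another. Of 34943 RefSeq promoters of this length, 7.66% held at least 1 copy, 0.455% held at least 2 and 7 promoters (0.02%), of 6 gene symbols, held at least 4; BCL6, another STAT5-regulated gene, was one of those symbols. Promoters were listed for 9 of the 10 members (SOCS2 had no entry), 15 starts in all, and of those 15 only that of CISH held the motif. A match is a description of these letters and does not show that a factor binds there.

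Library totals ran from 19901052 to 30816188 counts, and no 2 libraries held identical counts. Values below are CPM, counts scaled to a common library size after TMM scaling, which removes differences in composition between libraries. The T cell identity of the line was visible in 10 of 11 T cell markers with a median over 1 CPM, with sums of 889 to 1411 CPM per library; the adaptor LAT was at 0 in all but 1 library. Of 5 Sézary markers 4 passed 1 CPM, and PLS3 stayed at 0.908 CPM or lower. Natural killer markers summed to 0.594 CPM or less and the 3 globin genes were at 0, while the 5 epithelial markers (KRT8 and EPCAM among them) summed to 104 to 168 CPM and the 5 B cell markers to 40.7 to 93.0 CPM with CD79A detected and PAX5 near 0. In bulk RNA, fewer cells of a type and less RNA per cell cannot be told apart. Chaetocin replicate 3 stood apart, with 15.9% of its counts from mitochondrially encoded genes, where the other 12 libraries had 5.22 to 12.7%. Its TMM factor was 0.859 and it had 16085 genes detected, where the other 12 had 0.989 to 1.04 and 17405 to 21185.

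Per kilobase of exon, JAK1 was on average the most abundant member and the inhibitors were the least. JAK1, the kinase that serves many class I and class II cytokine receptors, averaged 20.4 ± 2.40 CPM per kb (SD, n = 13 libraries). PIM2, the PIM kinase typical of lymphoid cells, averaged 13.9 ± 3.03 CPM per kb, and JAK3, the kinase of the common gamma chain, averaged 13.2 ± 2.14 CPM per kb. These 2 did not differ beyond their spread, and PIM2 took ranks 1 to 3 across libraries.

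TYK2, the kinase of the interferon-alpha and interleukin 12 receptors, followed at 8.65 ± 0.817 CPM per kb and took rank 4 in all 13 libraries. PIM1, a STAT5 target and a close relative of PIM2, took rank 5 in all 13 libraries at 5.96 ± 1.41 CPM per kb. JAK2, which serves the erythropoietin, growth hormone and interferon-gamma receptors, was at 2.68 ± 0.416 CPM per kb. The inhibitors came last, with CISH at 1.55 ± 0.618, SOCS2 at 0.753 ± 0.195 and SOCS3 at 0.519 ± 0.371 CPM per kb. JAK2 and CISH, CISH and SOCS2, and SOCS2 and SOCS3 each overlapped in rank between libraries, so their order was not the same in every library. Levels per kb also depend on the exon length taken for each gene, here the union over its annotated transcripts.

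Within the kinase family, the shares per length of JAK1, JAK3 and TYK2 were steady, while that of JAK2 ran from 4.65 to 7.98%. JAK1 made up 45.5 ± 2.08% of the summed JAK level per kb, JAK3 29.2 ± 2.43%, TYK2 19.3 ± 1.54% and JAK2 6.02 ± 1.07% (SD, n = 13). The makeup of the SOCS and CISH sum varied more in percentage points. CISH made up 53.8 ± 7.94%, SOCS2 28.97 ± 10.3% and SOCS3 17.2 ± 6.71%. PIM2 made up 69.7 ± 6.42% of the sum of PIM1 and PIM2.

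**Figure D1:**
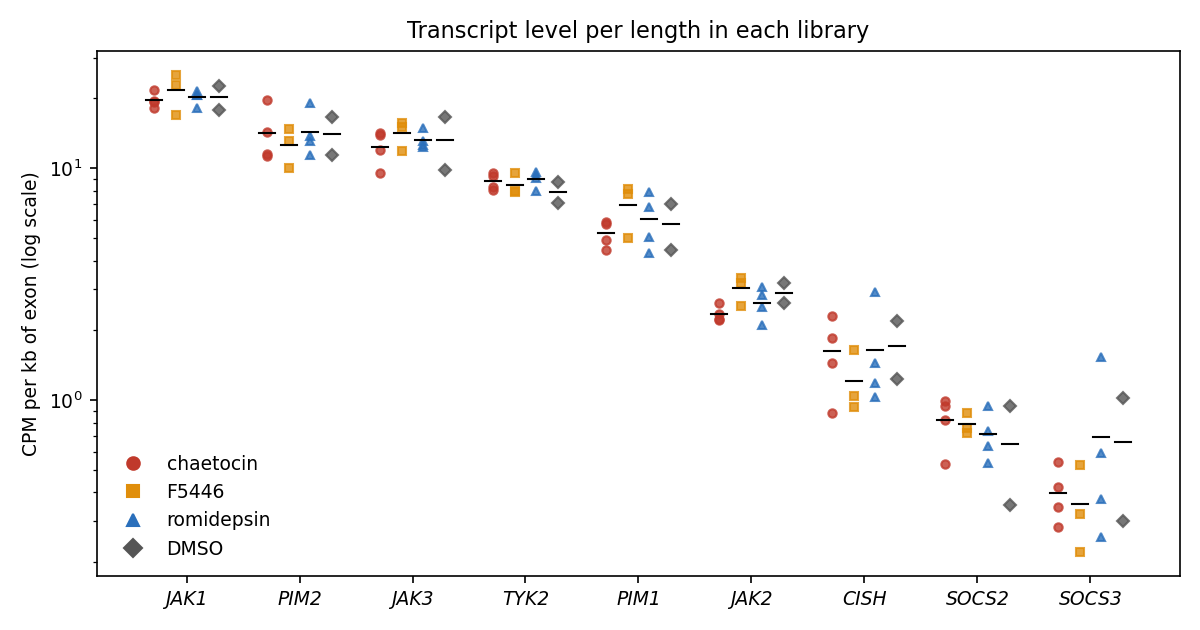
Level of the 9 detected members in each library, in CPM per kb of exon on a log axis, with 1 symbol for each library and a bar at each group's mean. JAK1, PIM2 and JAK3 lie above 9 CPM per kb in every library, and the libraries of each compound overlap those of DMSO for every gene; SOCS1, at 0 in all libraries, is not drawn.

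SOCS1, a SOCS protein that blocks JAK activity and is induced by interferon-gamma, was at 0 counts in all 13 libraries. Over the 313483920 counts of the libraries together, a count of 0 allows up to 0.00955 CPM, and in single libraries 0.0939 to 0.150 CPM; these limits cover counting error only. Genes on both sides of SOCS1 on its chromosome were counted. RMI2, the next gene on one side, had 215 to 469 counts per library with a median of 294, and CIITA, the class II transactivator 4 genes away, had 1538 to 3990 with a median of 2189. On the other side, the testis genes TNP2 and PRM3 were at 0, PRM2 and PRM1 had counts in 1 library each, and LITAF had 640 to 1712 counts with a median of 905. A gene at 0 throughout was not rare in the table: 3398 of 20124 protein-coding genes (16.9%) were at 0 in all libraries. The sources used here do not give the annotation used for counting, so absence of the transcript and loss of its reads in counting cannot be told apart.

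The comparison of chaetocin with DMSO asks what the methyltransferase inhibitor does to these transcripts. None of the 9 tested members was called by edgeR's quasi-likelihood test with Benjamini-Hochberg adjustment over all genes. That test called 0% of 17252 genes at an adjusted p under 0.05. Intervals over DMSO are wide, so the absence of a call does not show that a level stayed the same. At an unadjusted p under 0.05 stood 0 of 9 members, against 4.07% of all genes (703), and DESeq2 called 0 members and 10 genes. With the replicate number as a block, 10 genes and none of the members were called. Chaetocin and DMSO libraries overlapped for all 9, where 11.3% of all genes had no overlap.

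Of the kinases, JAK2 gave the smallest p. JAK2 was at 13.7, 13.9, 16.2 and 14.5 CPM in chaetocin replicates 1 to 4, against 16.1 and 19.7 CPM in DMSO replicates 1 and 4. Only chaetocin replicate 3 reached the DMSO range. The log2 fold change was -0.30 (95% CI -0.74 to 0.14), with an adjusted p of 1 in edgeR.

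Fold changes of the other members with chaetocin were smaller or less precise. JAK1, JAK3 and TYK2 had log2 fold changes of -0.04 (CI -0.36 to 0.29), -0.09 (CI -0.49 to 0.30) and 0.15 (CI -0.17 to 0.47). SOCS3, at 1.48, 1.16, 0.947 and 0.777 CPM in chaetocin replicates 1 to 4 against 2.78 and 0.821 CPM in DMSO replicates 1 and 4, showed a fold change of -0.72 on the log2 scale (CI -2.20 to 0.75). It is the inhibitor best known from interleukin 6 signalling, its 2 DMSO libraries differed by 3.38 times, and the groups overlap.

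CISH, the STAT5-induced inhibitor of interleukin 2 signalling, was at 11.8, 7.38, 9.47 and 4.51 CPM with chaetocin against 11.2 and 6.33 CPM with DMSO. PIM2 was at 54.3, 31.7, 31.3 and 39.6 CPM with chaetocin against 45.8 and 31.6 CPM with DMSO. In both genes replicate 1 was the highest of each group, and the log2 fold changes were -0.08 (CI -0.96 to 0.79) and 0.02 (CI -0.49 to 0.52). SOCS2 and PIM1 had 0.34 (CI -0.45 to 1.14) and -0.12 (CI -0.67 to 0.42). Over the 9 members 3 fold changes were above 0 (51% of all genes were), with a median of -0.08, against a median of 0.01 over all genes.

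F5446 was set against DMSO for the same question with the other inhibitor. No member of 9 was called in edgeR's test, in which 0% of genes were called at an adjusted p under 0.05. Unadjusted, 0 members were under 0.05, against 2.48% of all genes (428). DESeq2 called 0 members and 1 gene. F5446 and DMSO libraries overlapped for all 9 members, where 18.6% of all genes had no overlap. Of 9 log2 fold changes 6 were above 0 (51.2% of all genes were), with a median of 0.09, against 0.01 over all genes.

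Of the inhibitors, SOCS3 and CISH gave the lowest fold changes with F5446 and SOCS2 the highest (0.28). SOCS3 was at 0.606, 0.886 and 1.44 CPM in F5446 replicates 2 to 4 against 2.78 and 0.821 CPM in DMSO replicates 1 and 4, a log2 fold change of -0.89 (CI -2.46 to 0.68; adjusted p = 1 in edgeR). CISH was at 8.42, 4.76 and 5.34 CPM with F5446 against 11.2 and 6.33 CPM with DMSO, a log2 fold change of -0.50 (CI -1.42 to 0.42). DMSO replicate 1 was above all F5446 libraries in both genes, and DMSO replicate 4 lay among them.

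F5446 has no replicate 1, and DMSO has replicates 1 and 4. With the replicate number as a block in the edgeR fit, the fold change of SOCS3 was 0.08 (CI -1.54 to 1.69) and that of CISH -0.07 (CI -0.78 to 0.65). PIM2, at 27.6, 40.7 and 36.2 CPM with F5446 against 45.8 and 31.6 CPM with DMSO, gave -0.15 on the log2 scale (CI -0.69 to 0.38) without the block and 0.24 (CI -0.11 to 0.60) with it. The other feedback genes, SOCS2 and PIM1, stayed above 0 in both fits, with 0.28 and 0.28 without the block and 0.29 and 0.21 with it. JAK1 (0.10), JAK3 (0.11), TYK2 (0.09) and JAK2 (0.06) lay close to 0 without the block.

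**Figure D2:**
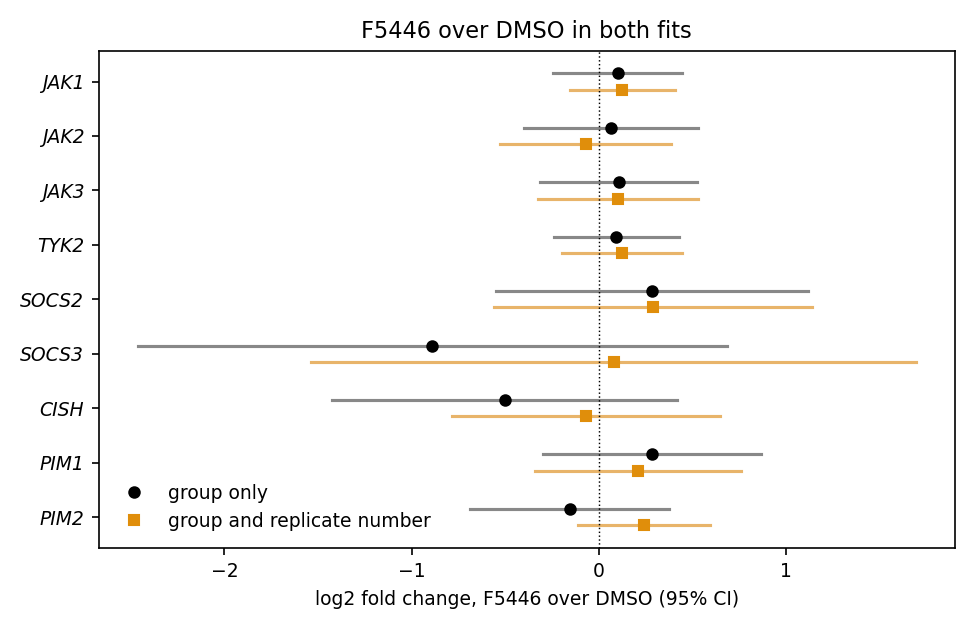
Log2 fold changes of F5446 over DMSO with 95% confidence intervals, from a fit with the group only (circles) and a fit that adds the replicate number (squares). SOCS3, CISH and PIM2 move the most between the fits, SOCS3 lying at -0.89 without the replicate number and at 0.08 with it, and every interval spans 0.

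Romidepsin was compared with DMSO as the histone deacetylase inhibitor of the study. Again no member of 9 was called in edgeR's test, where 0% of genes were called at an adjusted p under 0.05. Unadjusted, 0 members were under 0.05, against 2.82% of all genes (487). DESeq2 called 0 members and 1 gene, as did the edgeR fit with the replicate block. Romidepsin and DMSO libraries overlapped for all 9 members, where 10.3% of all genes had no overlap. Of the members 7 had fold changes above 0 (51% of all genes did), with a median of 0.04, against 0.01 over all genes.

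TYK2 gave the smallest p among the members with romidepsin. It was at 63.1, 54.0, 65.3 and 61.4 CPM in romidepsin replicates 1 to 4 against 48.2 and 59.3 CPM in DMSO replicates 1 and 4. Only romidepsin replicate 2 lay within the DMSO range, and the log2 fold change was 0.18 (CI -0.14 to 0.50; adjusted p = 1 in edgeR). JAK1 and JAK3 had 0.0039 and 0.0015 (CI -0.32 to 0.33 and -0.40 to 0.40), and RLE scaling turned both signs. JAK2 had -0.14 (CI -0.58 to 0.29).

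SOCS3 was at 4.21, 0.700, 1.62 and 1.02 CPM with romidepsin against 2.78 and 0.821 CPM with DMSO, and the log2 fold change of 0.07 had the widest interval of the 9 (CI -1.43 to 1.57). Its highest library of all 13 was romidepsin replicate 1. CISH was at 14.95, 5.25, 6.06 and 7.43 CPM with romidepsin against 11.2 and 6.33 CPM with DMSO, a log2 fold change of -0.06 (CI -0.94 to 0.82). PIM1 and PIM2 had 0.07 (CI -0.48 to 0.62) and 0.04 (CI -0.47 to 0.54), and SOCS2 had 0.14 (CI -0.65 to 0.93).

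The 2 DMSO libraries lay far apart in several members. SOCS2, the inhibitor of growth hormone signalling, was at 2.40 CPM in DMSO replicate 1 and 6.38 CPM in DMSO replicate 4. JAK3 was at 66.7 and 113 CPM in DMSO replicates 1 and 4, and the value of DMSO replicate 4 was the highest of all 13 libraries. With DMSO replicate 1 or DMSO replicate 4 left out in turn, 7 of 9 members had fold changes of opposite sign in the 2 fits with chaetocin, 8 of 9 with F5446 and 8 of 9 with romidepsin. The fold change of SOCS2 with chaetocin was -0.19 without DMSO replicate 1 and 1.22 without DMSO replicate 4, and neither was called. The comparisons with DMSO share these 2 libraries, so their values are not independent of one another.

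Doses and times of chaetocin and F5446 match, and their comparison does not take DMSO as its reference. The DMSO libraries still enter the scaling, filter and spread of the shared fit. A fit of the 2 groups alone called 0 members and 0 genes. In edgeR's test of the shared fit no member of 9 was called, and 0% of genes were called at an adjusted p under 0.05. Unadjusted, 0 members were under 0.05, against 3.4% of all genes (587). DESeq2 called 0 members and 2 genes, and the edgeR fit with the replicate block called 0 members and 11 genes. All 9 members overlapped, where 5.38% of all genes did not.

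JAK2 was again the member with the smallest p. Its 4 chaetocin libraries, at 13.7, 13.9, 16.2 and 14.5 CPM, stood against 19.7, 15.7 and 20.8 CPM in F5446 replicates 2 to 4. The groups overlapped only through chaetocin replicate 3 and F5446 replicate 3. The log2 fold change was -0.37 (CI -0.75 to 0.02; adjusted p = 0.9995 in edgeR), and -0.30 (CI -0.65 to 0.06) with the replicate block. Without chaetocin replicate 3, the library that stood apart, JAK2 had -0.41 against F5446 and -0.36 against DMSO, again not called. With each library left out in turn, the fold change of JAK2 ran from -0.48 to -0.28 against F5446 and from -0.44 to -0.15 against DMSO.

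PIM1 was at 13.3, 17.1, 14.7 and 17.5 CPM with chaetocin against 14.9, 24.3 and 23.1 CPM with F5446. F5446 replicate 2 lay within the chaetocin range and the other 2 above it, with a log2 fold change of -0.41 (CI -0.89 to 0.07). CISH and PIM2 had 0.42 (CI -0.36 to 1.20) and 0.17 (CI -0.27 to 0.62), and 0.15 and -0.01 with the replicate block. The others lay between -0.20 (JAK3) and 0.17 (SOCS3, CI -1.18 to 1.52), and 5 of 9 were above 0, where 49.9% of all genes were. These intervals leave room for differences in both directions, so the p-values do not show that the compounds acted alike.

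**Figure D3:**
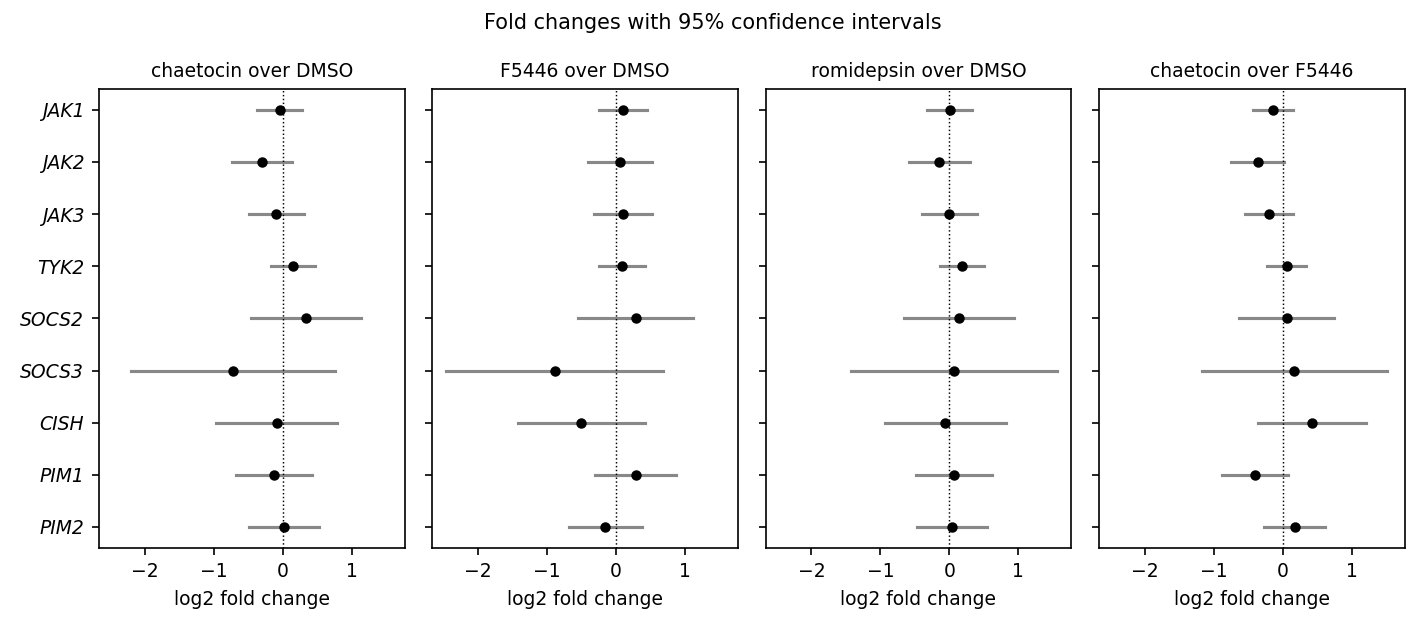
Log2 fold changes of the 9 tested members in 4 comparisons, with dots for the estimate and lines for the 95% confidence interval. Every interval spans 0, and the intervals are narrowest for JAK1 and TYK2 and widest for SOCS3.

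A test of any difference among the 4 groups in the same edgeR fit called 0 members and 4 of 17252 genes (0.0232%). All 9 had an adjusted p of 0.9999 in edgeR. The 4 genes, named after their values were seen, were CAPN6, ITGB7, GBP2 and ATF5. At an unadjusted p under 0.05 stood 0 members, against 3.15% of all genes.

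CISH and PIM2 varied with the replicate number in the labels, as 12.2% of all genes did, in a comparison added after the data were seen. Neither was called in any comparison of treatments. CISH averaged 12.6 ± 2.01 CPM in the 3 libraries numbered 1 (chaetocin, romidepsin and DMSO), 7.02 ± 1.62 in those numbered 2, 6.76 ± 2.43 in those numbered 3 and 5.90 ± 1.26 in the 4 numbered 4 (SD). PIM2 averaged 51.1 ± 4.56, 30.3 ± 2.36, 36.1 ± 4.71 and 36.4 ± 3.45 CPM in the same order. In both genes the 3 libraries numbered 1 lay above all 10 others: CISH at 11.2 to 14.95 against 4.51 to 9.47 CPM, and PIM2 at 45.8 to 54.3 against 27.6 to 40.7 CPM.

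In the edgeR fit with group and replicate number, the number terms together gave adjusted p = 0.00150 for PIM2 and 0.0254 for CISH. These were 2 of 9 members, and 12.2% of all genes (2111) were called by this test, so such a call is not particular to these members. The estimate for number 1 over the mean of the others was 0.64 on the log2 scale for PIM2 and 0.93 for CISH. These estimates come with no test or interval, because number 1 was picked after its values were seen. Of all genes, 3.08% had their 3 libraries numbered 1 above all others.

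The call of CISH did not hold under every omission of 1 library. Its adjusted p in edgeR was 0.0939 without chaetocin replicate 1, 0.0515 without chaetocin replicate 4 and 0.357 without romidepsin replicate 1. Without chaetocin replicate 3 the adjusted p in edgeR was 0.00216 for CISH and 0.000237 for PIM2. PIM2 was called under every scaling, filter, tool and omission run, with adjusted p from 2.05e-05 (DESeq2) to 0.0346 (edgeR, without chaetocin replicate 1). SOCS3 was at 1.48, 4.21 and 2.78 CPM in libraries numbered 1 of chaetocin, romidepsin and DMSO, against 0.606 to 1.62 CPM in the others, and was not called (adjusted p = 0.267 in edgeR). It rests on 14 to 94 counts per library, the fewest of the 9.

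No kinase was called by the test of the 4 replicate numbers, and JAK1 was nearest, with adjusted p = 0.110 in edgeR. JAK1 averaged 123 ± 9.33, 112 ± 4.44, 140 ± 19.01 and 139 ± 6.34 CPM in libraries numbered 1, 2, 3 and 4. A test of numbers 3 and 4 against 1 and 2 in edgeR was added after the data were seen. The titles do not say what the numbers mark. JAK1 was called there at 0.24 on the log2 scale (CI 0.07 to 0.40, adjusted p = 0.0401 in edgeR). Its mean was 139 CPM in numbers 3 and 4 and 117 CPM in 1 and 2. CISH was called in the same fit at -0.62 (CI -1.06 to -0.18, adjusted p = 0.0495 in edgeR), and PIM2 was not (adjusted p = 0.652). In that fit 15.8% of all genes (2719) were called, so such a call is not particular to these members.

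Both calls of the set of numbers lay near the threshold, and neither held under every omission of 1 library. In edgeR, JAK1 was no longer called without chaetocin replicate 2 or 4, any of the 3 F5446 libraries, romidepsin replicate 2 or either DMSO library, with adjusted p from 0.0162 to 0.236 over all 13 omissions. CISH was no longer called without chaetocin replicate 1 or 4, any F5446 library, romidepsin replicate 1, 3 or 4 or either DMSO library, with adjusted p from 0.00719 to 0.229 in edgeR. The share of mitochondrially encoded genes was 10.8 to 11.7% in the libraries numbered 1 and 5.22 to 15.9% in the others, and its part in the result was not tested. The exons of CISH share 218 bases with MAPKAPK3 on the opposite strand, a gene with 18862 counts over all libraries, and those of SOCS2 share 277 bases with SOCS2-AS1 (748 counts). The strand setting of the counting is not given, so reads in these stretches cannot be assigned.

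**Figure D4:**
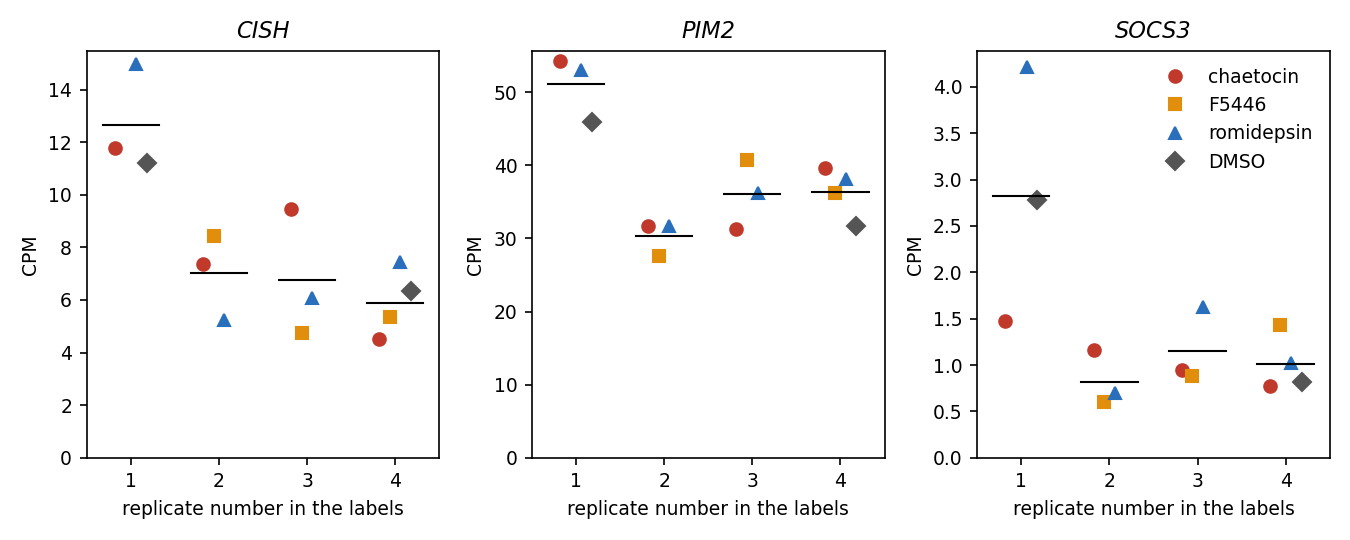
CPM of CISH, PIM2 and SOCS3 in each library by the replicate number in its label, with symbols for the treatment and a bar at the mean of each number; F5446 has no number 1, and DMSO has numbers 1 and 4. The libraries numbered 1 lie above all others for CISH and PIM2, and chaetocin replicate 1 lies among the others for SOCS3.

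Across the 13 libraries, 36 pairs of members were correlated on the log2 CPM scale, with permutation p-values adjusted over the 36. The permutations treat the libraries as exchangeable, although same-numbered libraries deviate together, so the p-values do not allow for that dependence. JAK3 and PIM1 gave Pearson's r = 0.79 (permutation p = 0.00128, adjusted 0.0461) and Spearman's rho = 0.82 (permutation p = 0.00114, adjusted 0.0229). Without the 2 libraries farthest from the median of JAK3 (chaetocin replicate 3 and DMSO replicate 1), r was 0.84, and without chaetocin replicate 3 alone it was 0.83. It was 0.71 within replicate numbers 1 and 2 and 0.75 within numbers 3 and 4.

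JAK1 and PIM1 gave r = 0.75 (permutation p = 0.00382, adjusted 0.0478) and rho = 0.74 (permutation p = 0.00536, adjusted 0.0643), with r = 0.70 without the 2 farthest libraries and 0.52 and 0.78 within the 2 sets of numbers. SOCS3 and PIM2 gave r = 0.74 (permutation p = 0.00398, adjusted 0.0478) and rho = 0.65 (permutation p = 0.0191, adjusted 0.138). Without romidepsin replicate 1 and DMSO replicate 1 that r was 0.54, and within numbers 3 and 4 it was -0.0025, so the relation rests on libraries numbered 1. JAK1 and JAK3, which work as a pair at common gamma chain receptors, gave r = 0.68 (permutation p = 0.0105, adjusted 0.0795) and rho = 0.81 (permutation p = 0.00127, adjusted 0.0229), with r = 0.71 without the 2 farthest libraries and 0.32 and 0.78 within the sets. CISH and PIM2 gave r = 0.49 (permutation p = 0.0922, adjusted 0.238) and rho = 0.23 (permutation p = 0.449, adjusted 0.651). Within numbers 1 and 2 their r was 0.82, and within numbers 3 and 4 it was -0.71. The libraries share 1 cell line, and in all 21 of the 36 coefficients were positive.

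**Figure D5:**
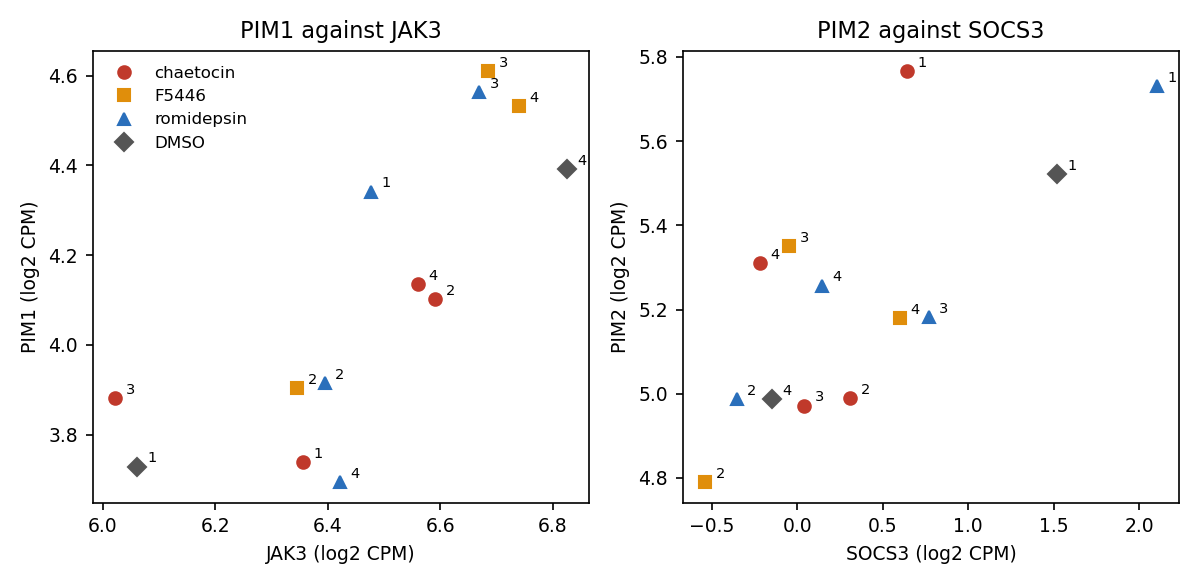
Log2 CPM of PIM1 against JAK3 and of PIM2 against SOCS3, 1 point for each of the 13 libraries, with the replicate number beside it. PIM1 and JAK3 are high in the same libraries (r = 0.79), while on the right the libraries numbered 1 lie at the top.

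The genes most like each member were sought among 10095 genes of at least 5 CPM by r over the 13 libraries, as a description without a test. COPB2 (0.94) and RASSF2 (0.90) came first for PIM2, and WBP4 (0.94) and CSTF2 (0.94) for CISH. LANCL1 (0.93) came first for JAK3, ZNF430 (0.93) and TMOD3 (0.93) for JAK1, and PIP5K1A (0.91) and NRAS (0.89) for PIM1. The r of 0.79 between JAK3 and PIM1 lay below the highest r of either gene. How often other pairs of genes reach such an r was not tested. For TYK2 they were ZNF622 (0.91) and PTPN1 (0.88), for SOCS2 SETDB2 (0.89), and for JAK2 PHKA1 (0.85). SOCS3 lay under 5 CPM and was not matched.

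The rest of the pathway was read from lists of 82 genes (STATs, receptors, ligands, other inhibitors and target genes), of which 73 were tested and 0 were called in each of the 4 comparisons in edgeR. At an unadjusted p under 0.05 were 4 of 73 with chaetocin over DMSO, 2 with F5446, 0 with romidepsin and 4 with chaetocin over F5446, where 4.07, 2.48, 2.82 and 3.4% of all genes were. With chaetocin over DMSO 3 of 20 receptor subunits had fold changes above 0, with a median of -0.17, where 51% of all genes were above 0. The same 20 had 8 above 0 with F5446 (median -0.06), 11 with romidepsin (median 0.02) and 6 with chaetocin over F5446 (median -0.08). Among 17 other inhibitors 12 were above 0 with chaetocin (median 0.09), 12 with F5446 (median 0.11) and 12 with romidepsin (median 0.11), all over the same 2 DMSO libraries, and 7 with chaetocin over F5446 (median -0.04). In the remaining lists, 2 of 7 STATs, 8 of 11 ligands and 8 of 21 targets were above 0 with chaetocin over DMSO. Those counts were 4, 7 and 11 with F5446 and 4, 7 and 10 with romidepsin. With chaetocin over F5446 they were 2, 5 and 10. Some receptor subunits lay near 0, such as IL10RB at 0.159 CPM with chaetocin and 0.409 CPM with DMSO. No list was tested as a set.

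With chaetocin over DMSO, a receptor chain and a ligand from the lists are given, and neither passed the test. IL2RB, the receptor chain that JAK1 binds, averaged 55.0 ± 9.63 CPM in the 4 chaetocin libraries and 89.7 ± 13.3 CPM in the 2 DMSO libraries (SD), without overlap (log2 fold change -0.71, CI -1.09 to -0.32; adjusted p = 0.733 in edgeR). IFNG, the ligand of the interferon-gamma receptor, was at 0.402 ± 0.397 CPM with chaetocin and 2.9997 ± 2.40 CPM with DMSO. Its log2 fold change was -2.88 (CI -4.70 to -1.07). The gene was low in both groups, and its 2 DMSO libraries lay far apart.

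With F5446 over DMSO, IL9R, the interleukin 9 receptor, had 0.39 on the log2 scale (53.3 ± 2.37 CPM with F5446, n = 3, and 40.8 ± 0.649 CPM with DMSO, n = 2). With romidepsin over DMSO the smallest p was that of IL2RA, the alpha chain of the interleukin 2 receptor, at 1.72 ± 0.739 CPM with romidepsin and 3.63 ± 0.5998 CPM with DMSO (-1.06, CI -2.15 to 0.02). With chaetocin over F5446 it was that of IL9R, at 34.5 ± 6.76 CPM with chaetocin and 53.3 ± 2.37 CPM with F5446 (-0.63, CI -0.94 to -0.32; adjusted p = 0.795 in edgeR). None of these was called.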

How the data were processed

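Per the labels' protocols, total RNA was extracted with a column kit, DNase-treated and made into libraries with an Ovation kit intended for degraded human RNA. Per the submitters' processing notes, bcl2fastq 2.20.0.422, cutadapt 1.8.1 and HTSeq 0.6.1 were used with hg19. Which aligner, strand setting and annotation release they used is not given in the sources used here. The deposited values are raw counts for 45744 genes in 13 sample columns, each of which was used.

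Genes were filtered by edgeR's rule for the group sizes, which kept 17252. A single fit held all libraries and a term for group alone (edgeR 4.0.16 in R 4.3.3, TMM, robust quasi-likelihood test, two-sided). P-values were adjusted by Benjamini-Hochberg over all tested genes and called under 0.05, whatever the fold; intervals are 95%. Log2 CPM used a prior count of 2, and correlations 100000 permutations. Exon lengths came from GENCODE on GRCh38, matched by Ensembl ID, and serve only to compare levels between genes. Each is the union of exons over all annotated transcripts of a gene (5.112 kb for CISH, 6.776 kb for SOCS2, 2.734 kb for SOCS3). Other lengths would change the order and shares per kb. Steps were tested on simulated counts drawn independently for each library, without an effect of the replicate number. That check therefore does not cover libraries that deviate together by number.

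All 10 members were named; other pathway genes came from fixed lists, with the 3 smallest p-values per comparison eligible for mention; a gene that this rule names is not reported here. The members and lists were chosen with earlier results of these data known. Replicate numbers come from the titles, which do not say what they mark. The reported comparisons of treatments therefore do not pair samples by number, and the replicate block was run only as an alternative. Deviations from group means correlated in all 15 pairs of same-numbered libraries from different groups (r 0.165 to 0.673, over 10096 genes of at least 5 CPM). Of 47 pairs with different numbers 16 were also over 0.1 (median -0.252, highest 0.627), and the deviations of the 2 DMSO libraries mirror each other, so their pairs are not separate evidence. Alternatives were DESeq2 1.42.0, limma-voom (limma 3.58.1), RLE and upper-quartile scaling, no filter, a mean of at least 5 CPM, a replicate block, a covariate for the set of the number (1 and 2, or 3 and 4), the 2 groups alone and each library left out. The tests of the replicate number and of its sets, with their alternatives, were added after the data were seen. Figures were drawn with matplotlib 3.10.9.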

Additional observations from a re-analysis of the deposited data

How the results depend on the processing

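None of the alternatives run called a member in any comparison of treatments. The count of all genes called moved. Chaetocin over DMSO went to 9 without a filter, 10 with DESeq2, 10 with the replicate block and 7 with a covariate for the set of the number (1 and 2, or 3 and 4), and lay at 0 to 2 with 1 library left out. F5446 over DMSO had 1 with DESeq2. Romidepsin over DMSO had 5 without a filter and 1 with DESeq2, the replicate block or that covariate. Chaetocin over F5446 had 9 without a filter, 2 with DESeq2, 11 with the replicate block and 5 with the covariate. The test among the 4 groups, with 4 genes in the fit as reported, had 1 with RLE scaling, upper-quartile scaling or limma-voom, 60 without a filter, 0 at a mean of at least 5 CPM, 35 with DESeq2, 65 with the replicate block, 51 with the covariate and 0 to 11 with 1 library left out. The cause was not tested.

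Several fold changes changed sign, none of them called; the largest of these as reported was SOCS3 with F5446 over DMSO (-0.89). With romidepsin over DMSO, JAK1 was -0.0025 under RLE scaling, -0.0017 without a filter, -0.0035 at 5 CPM and -0.0024 in DESeq2. JAK3 there was -0.0060 under RLE, -0.0010 under upper-quartile scaling, -0.0042 without a filter, -0.0069 at 5 CPM, -0.0061 in DESeq2 and -0.0022 with the 2 groups alone. PIM2 with chaetocin over DMSO was -0.00065 in limma-voom. With the replicate block, JAK1 (0.012) and CISH (0.083) turned with chaetocin over DMSO, JAK2 (-0.069), SOCS3 (0.079) and PIM2 (0.24) with F5446 over DMSO, CISH (0.065) with romidepsin over DMSO, and SOCS3 (-0.14) and PIM2 (-0.0086) with chaetocin over F5446. SOCS3 in the last comparison was -0.048 with the covariate. The block changed no other sign and no call of a member.

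With 1 library left out, log2 fold changes that changed sign had these ranges. Over DMSO with chaetocin they were -0.20 to 0.14 for JAK1, -0.42 to 0.34 for JAK3, -0.19 to 1.22 for SOCS2, -1.34 to 0.41 for SOCS3, -0.44 to 0.39 for CISH, -0.42 to 0.25 for PIM1 and -0.22 to 0.31 for PIM2. With F5446 they were -0.071 to 0.29 for JAK1, -0.082 to 0.22 for JAK2, -0.24 to 0.54 for JAK3, -0.059 to 0.25 for TYK2, -0.26 to 1.16 for SOCS2, -1.51 to 0.23 for SOCS3, -0.022 to 0.66 for PIM1 and -0.40 to 0.13 for PIM2. With romidepsin they were -0.16 to 0.19 for JAK1, -0.28 to 0.0060 for JAK2, -0.33 to 0.43 for JAK3, -0.40 to 1.01 for SOCS2, -0.68 to 1.20 for SOCS3, -0.49 to 0.41 for CISH, -0.22 to 0.44 for PIM1 and -0.21 to 0.33 for PIM2. With chaetocin over F5446 they were -0.040 to 0.23 for SOCS2, -0.084 to 0.55 for SOCS3 and -0.025 to 0.30 for PIM2. A fit that left 1 DMSO library assumes that it varies like the other groups.

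The replicate number called 1215 to 2609 genes and 1 to 3 members with 1 library left out, against 2111 genes and 2 members. Numbers 3 and 4 against 1 and 2 called 2 members, but 1 under RLE scaling, upper-quartile scaling, no filter, DESeq2 or limma-voom, and 0 to 3 with 1 library left out. Of the 3 correlated pairs of members, 1 was left under RLE scaling, 1 without chaetocin replicate 3, and 0 in each set of numbers (1 and 2, or 3 and 4); the r of SOCS3 and PIM2 within numbers 3 and 4 was -0.0025. Depth limits SOCS3 most, and with 2 DMSO libraries the comparisons over DMSO have wide intervals. Under the filter at 5 CPM SOCS3 has no value.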
